A study of Mus musculus with 2 samples.

Results

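The miRNA genes described here are the 8 that lie on the plus strand of chromosome 12 from Mir770, inside the long non-coding RNA gene Meg3, to Mir3070b, the last one before the anti-Rtl1 miRNAs begin at Mir431. They are defined by position in the GENCODE M21 annotation (build mm10), not by their values, and are 8 of 2202 annotated miRNA genes. The choice was made with earlier results of these data known. The data are microRNA sequencing of gastrocnemius, a calf muscle, from 2 female mice of the strain B6CASTF1/J at 10 days of age, an F1 hybrid of C57BL/6 and CAST. Both samples are of this single group, so there is no contrast of conditions, and the counts do not separate the parental alleles. They are labelled as biological replicates 1 and 2 with a differently numbered female for each, while both carry the same donor entry.

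The Dlk1-Dio3 region is an imprinted domain: from the maternal chromosome it produces long non-coding RNAs, small nucleolar RNAs and many miRNAs, and from the paternal chromosome the protein-coding genes Dlk1, Rtl1 and Dio3. Its maternal RNAs Meg3, anti-Rtl1, Rian and Mirg are thought to arise largely as parts of a long common transcript, from which the miRNA hairpins are cut. In skeletal muscle the miRNAs of the region are known for high levels in immature muscle and for a fall as muscle matures. A hairpin carries a mature miRNA on its 5′ arm and another on its 3′ arm, and bases 2 to 8 of a mature miRNA, the seed, do most of the pairing with a target mRNA.

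Mature sequences were taken from RefSeq (GRCm38.p6, the assembly also called mm10), where all 8 genes matched by symbol, and all 8 hairpins were identical in sequence to those of GENCODE. The arms of the 6 abundant genes are shown because each count below is the sum of both arms of its gene. The seed is in capitals, and sequences run 5′ to 3′.
miR-770-5p: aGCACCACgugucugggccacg
miR-770-3p: cGUGGGCCugacguggagcugg
miR-673-5p: cUCACAGCucugguccuuggag
miR-673-3p: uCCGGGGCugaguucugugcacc
miR-493-5p: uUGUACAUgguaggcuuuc
miR-493-3p: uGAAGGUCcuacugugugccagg
miR-337-5p: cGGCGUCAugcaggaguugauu
miR-337-3p: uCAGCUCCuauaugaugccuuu
miR-540-5p: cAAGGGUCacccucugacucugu
miR-540-3p: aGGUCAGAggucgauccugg
miR-665-5p: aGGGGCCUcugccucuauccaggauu
miR-665-3p: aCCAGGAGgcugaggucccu

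The 8 genes form no seed family. Their 15 mature miRNAs, which are 19 to 26 bases long, carry 14 distinct seeds, and the only seed that recurs among them is that of the 3′ arms of Mir3070a and Mir3070b. With the copies Mir3070a and Mir3070b counted as separate genes, 5 of the 15 share a seed with another gene, and 29.6% of the 1679 mature names in the table do. For 13 of the 15 the seed occurs in no gene outside the 8. The exceptions are miR-673-5p, whose seed is also that of miR-6985-3p, and miR-540-3p, whose seed is also that of miR-6915-5p. Mir6985 had 0 CPM in both libraries and Mir6915 had 0.522 ± 0.336 CPM (SD, n = 2), so neither of the seed partners was abundant in this muscle by its counted reads.

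The genes span 25.0 kb. Mir770 (109563692 to 109563785) lies within Meg3 (109541001 to 109571726), a lincRNA gene. Of 11 annotated Meg3 transcripts 4 span Mir770, which lies in exon 5 of 1 of them and in an intron of the other three. The remaining genes lie beyond the annotated end of Meg3 and overlap no annotated gene on their strand. Mir673 (109571990 to 109572080) starts 264 bases after that end and Mir493 (109580233 to 109580315) 8507 bases after it. Mir337 (109585789 to 109585885), Mir540 (109586080 to 109586146) and Mir665 (109586314 to 109586407) form a compact group with gaps of 194 and 167 bases. Mir3070a (109587943 to 109588031) and Mir3070b (109588592 to 109588680) follow, and Mir3070b ends 512 bases before the 3′ end of Rtl1 (109589193 to 109600330), which is transcribed from the opposite strand.

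The libraries held 3510897 (replicate 1) and 3949733 (replicate 2) reads on the sense strand of miRNA genes, and levels are given per 1e6 of these reads (CPM). A count of 0 allows up to 3 counts, or 0.854 and 0.760 CPM, of uniquely aligned reads. The spread between the libraries was far above sampling noise (chi-square of 90.8 per degree of freedom over 386 genes). This spread cannot tell 2 animals from 2 libraries of the same animal, so their use as 2 samples rests on the labels. The fixed list of 9 skeletal muscle miRNA genes held 11.7% and 9.61% of the reads with 8 genes detected, that is at 2 CPM or more in both libraries. Nearly all of this share was Mir206, at 115948 and 95264 CPM, while Mir1a-1, whose mature miRNA is also that of Mir1a-2, had 12 and 15 reads. Endothelial Mir126a held 4.20% and 4.63%, the smooth muscle and stroma genes 2.35% and 2.99%, erythroid genes 0.207% and 0.187%, and leukocyte genes 0.0743% and 0.0654%. Neural and glial genes held 0.0250% and 0.0377%, with Mir9-2 and all 3 Mir124a genes at 0, the liver miRNA Mir122 0.0491% and 0.0176%, and epithelial genes 0.00527% and 0.00213%. The Mir124a copies share a mature miRNA, as Mir9-2 does with its paralogues, and reads that aligned to several places were counted on no gene, so a count of 0 there does not show that the miRNA was absent. The share of the skeletal muscle list likewise leaves out such reads of all its genes, the Mir1a copies among them. It is no full measure of the miRNAs of that list. The part of these cell types in the levels below was not tested, and in whole tissue fewer cells of a type and less RNA per cell cannot be told apart.

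Of the 8 genes 7 were detected in gastrocnemius, 6 of them at a mean of 862 CPM or more and Mir3070b near the threshold. Mir337 and Mir540 were the most abundant, followed by Mir493, and Mir673, Mir665 and Mir770 lay between 847 and 1594 CPM. Mir3070a and Mir3070b had 6 to 13 reads per library, which leave out reads that match both of these copies. The 8 genes summed to 2.01% of counted reads (replicate 1, Wilson 95% interval 1.99% to 2.02%) and 1.72% (replicate 2, 1.71% to 1.73%), a mean of 1.86% ± 0.202 (SD, n = 2). The intervals cover counting error only, and the difference between the libraries exceeded it.

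Mir337 had 19761 reads in replicate 1 and 22559 in replicate 2, which is 5628 and 5712 CPM and a mean of 5670.0 ± 58.7 CPM (SD, n = 2). The animals differed little, and by counted reads the gene ranked 31st of all annotated miRNA genes. Reads that aligned to several places are missing from this ranking, so genes with identical copies can stand too low in it. Mir540, the next hairpin 194 bases downstream, had 20796 and 19648 reads, or 5923 and 4975 CPM, with a mean of 5449 ± 671 CPM. It was the highest of the 8 genes in replicate 1 and the second in replicate 2, so Mir337 and Mir540 cannot be ordered. In replicate 1 the ratio of Mir337 to Mir540 reads was 0.950 (exact 95% interval 0.932 to 0.969) and in replicate 2 it was 1.15 (1.13 to 1.17).

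Mir493, known in other tissues as a miRNA whose overexpression limits metastasis of colon cancer cells to the liver, had 16447 and 13340 reads, or 4685 and 3377 CPM (mean 4031 ± 924 CPM). Both animals were below the lower Mir540 value. Mir673 had 5596 and 5321 reads, or 1594 and 1347 CPM (mean 1471 ± 174 CPM). It was 2.94 times lower than Mir493 in replicate 1 (exact 95% interval 2.85 to 3.03) and 2.51 times lower in replicate 2 (2.43 to 2.59), the largest step among the abundant genes.

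Mir665 had 4725 and 3722 reads, or 1346 and 942 CPM (mean 1144 ± 285 CPM). Its higher animal stood at 1345.8 CPM and the lower Mir673 animal at 1347.2 CPM, so the ranges of these genes met without overlapping, and within each animal Mir673 was higher by 1.18 times (exact 95% interval 1.14 to 1.23) and 1.43 times (1.37 to 1.49). Mir770, the gene inside Meg3, was the lowest of the abundant genes with 3081 and 3344 reads, or 878 and 847 CPM (mean 862 ± 21.9 CPM). In the order by mean level, 6 of 7 neighbouring pairs had ranges that did not overlap, and the exception was Mir337 with Mir540. Mir3070b with Mir3070a is among these 6, but it rests on few reads, by which the copies cannot be ranked. With 2 animals a gap between ranges is a description and no test.

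**Figure D1:**
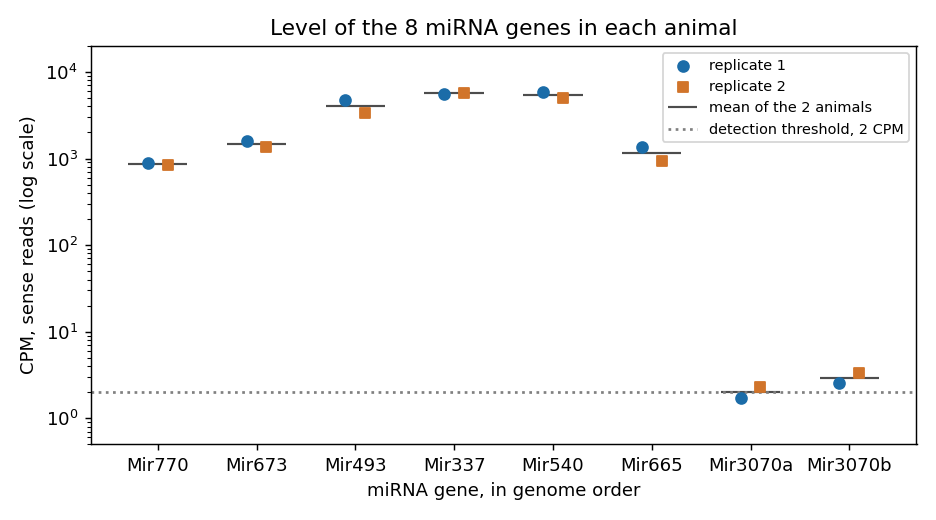
Sense reads per 1e6 miRNA reads (CPM, log axis) of the 8 genes in genome order, with a point for each animal, a line for the mean and a dotted line at the detection threshold of 2 CPM. The 6 genes from Mir770 to Mir665 lie between 847 and 5923 CPM, while Mir3070a and Mir3070b lie between 1.71 and 3.29 CPM.

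Along the chromosome the mean level rose from Mir770 (862 CPM) through Mir673 (1471 CPM) and Mir493 (4031 CPM) to Mir337 and Mir540 (5670.0 and 5449 CPM). It was lower again at Mir665 (1144 CPM), 167 bases beyond Mir540, and lowest by counted reads at the Mir3070 hairpins. The counts of these copies leave out reads that match both, so the low end of this profile is uncertain. Mir540 and Mir665, which have the closest spacing of any neighbours among the 8 genes, thus differed more in level than Mir337 and Mir540 did. Each read spans a whole small RNA, so levels were not divided by length. Per base of the hairpin, which is 67 bases for Mir540 and 97 for Mir337, Mir540 stood above Mir337 (81.3 against 58.5 CPM per base) and the remaining order was the same.

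The 8 genes held a small part of the miRNA reads of the region. Over the 58 plus-strand miRNA genes from Mir770 to Mir3072 they gave 6.56% (replicate 1, Wilson 95% interval 6.52% to 6.61%) and 5.88% (replicate 2, 5.84% to 5.93%). The 6 anti-Rtl1 genes, which lie opposite Rtl1, gave 39.2% and 40.1%, and the 39 genes of the distal cluster 53.0% and 52.8%. The median mean level was 1307 CPM for the 8 genes, 7894 CPM for the anti-Rtl1 genes, 937 CPM for the distal genes and 962 CPM for all 58. More than 1000 CPM was reached by 5 of 8, 4 of 6 and 18 of 39 genes.

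The highest genes nearby were well above the highest of the 8. Mir431, the next gene downstream of Mir3070b, stood at 19858 ± 1530 CPM. Mir127, the highest anti-Rtl1 gene, stood at 82490.2 ± 1028 CPM, and Mir411, the highest distal gene, at 61091 ± 1491 CPM. Within the region the abundant genes ranked 10th (Mir337), 12th (Mir540), 14th (Mir493), 21st (Mir673), 27th (Mir665) and 31st (Mir770) of 58. By mean level Mir337 and Mir540 thus lay well inside the upper part of the region, and Mir770 near its middle.

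**Figure D2:**
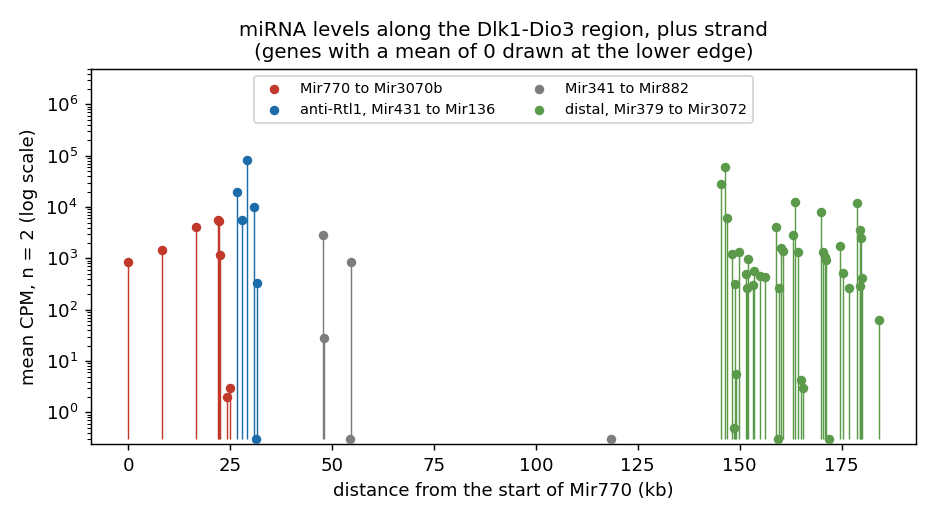
Mean CPM of 2 animals (log axis) of the 58 plus-strand miRNA genes of the region by distance from the start of Mir770 in kb, coloured by part, with genes at 0 drawn at the lower edge. The 8 genes occupy the first 25.0 kb, rise from 862 CPM at Mir770 to 5670.0 CPM at Mir337 and end at the low Mir3070 genes, next to the anti-Rtl1 genes, which reach 82490.2 CPM. Counts of the Mir3070 genes leave out reads that match both copies.

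Some genes with the closest pair of levels come from the same region, which also holds many of the genes at such levels. By counted reads Mir770, the lowest of the 6 abundant genes, ranked 84th of all annotated miRNA genes and 31st within the region. Whether genes of the region are more frequent among the nearest than among all genes of such levels was not tested. Likeness was the distance between log2(CPM + 1) values over the 2 libraries, so it reflects level more than pattern. Mir433, an anti-Rtl1 miRNA, at 5584 ± 400 CPM (SD, n = 2), was nearest both to Mir540 (distance 0.0928) and to Mir337 (0.123). Mir134 (1359 ± 192 CPM) was nearest to Mir673 (0.166), and Mir668 (1087 ± 165 CPM) and Mir380 (1224 ± 211 CPM) to Mir665 (0.166 and 0.192). All 4 lie on chromosome 12. The nearest to Mir493 was Mir483 (4400 ± 1001 CPM, distance 0.179), a miRNA of the imprinted Igf2 gene on chromosome 7, and the nearest to Mir770 was Mir16-1 (823 ± 21.5 CPM, 0.0938) on chromosome 14, whose count is uncertain because Mir16-2 encodes the same 5′ miRNA.
The second nearest were Mir744 for Mir337 (0.150), Mir351 for Mir540 (0.195), Mir99b for Mir493 (0.212), Mir301 for Mir673 (0.193) and Mir872 for Mir770 (0.0990). For the Mir3070 genes the nearest were other genes of a few reads, Mir29b-1 and Mir29b-2 at equal distance for Mir3070a (0.116 each; copies that share a mature miRNA, so uncertain), and Mir3057 (0.0877) and Mir489 (0.195) for Mir3070b.

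The libraries were compared gene by gene to see which levels differed between them. A two-sided exact conditional binomial test was applied to the counts of each gene given the library totals, with Benjamini-Hochberg adjustment over 395 genes. It compares these libraries, each labelled as 1 animal, and says nothing about a condition. As it covers counting error only, it cannot tell a difference between animals from one between library preparations. Of the 8 genes 4 passed at an adjusted p under 0.05, and all 4 were lower in replicate 2. Over all genes tested 41.3% passed in either direction and 24.3% passed as lower in replicate 2. Among the 181 genes above 100 CPM, where counts are high, 68.5% passed, as did 4 of the 6 abundant genes here (66.7%). Passing the test was therefore about as frequent as among other genes of such depth. Lower calls were 42.0% of those 181 genes, 3 of 5 tested anti-Rtl1 genes and 23 of 36 tested distal genes, and this difference in direction was not tested.

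Mir665 differed most among the abundant genes, being 1.43-fold higher in replicate 1 (exact 95% interval 1.37 to 1.49, exact adjusted p = 1.05e-58). Mir493 was 1.39-fold higher in replicate 1 (1.36 to 1.42, exact adjusted p = 6.32e-173). Mir540 was 1.19-fold higher (1.17 to 1.21) and Mir673 1.18-fold higher (1.14 to 1.23) in the same library. These folds are all below the 2-fold limit, which 0 of the 8 genes passed together with the adjusted p, against 7.09% of all genes tested. That share covers genes of all depths, and a share at like depth was not computed. With so few genes, 0 of 8 does not show that they were steadier than others.

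Mir337 and Mir770 did not pass. The ratio of replicate 2 to replicate 1 was 1.01 for Mir337 (exact 95% interval 0.996 to 1.03, exact adjusted p = 0.242) and 0.965 for Mir770 (0.918 to 1.01, exact adjusted p = 0.269). For Mir337 the call depends on the scaling: with DESeq2 size factors the ratio was 1.05 and the exact adjusted p was 4.91e-07. For Mir3070a and Mir3070b the ratios were 1.33 and 1.28, with exact 95% intervals of 0.424 to 4.55 and 0.508 to 3.40. At this depth a level 2-fold higher in replicate 2 was thus not excluded for either gene, nor one 2-fold lower for Mir3070a. For Mir3070b the lower limit lay just short of 2-fold.

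Expressed as log2 of replicate 2 over 1, after adding 0.5 to the counts, the median ratio was -0.15 over the 8 genes and -0.25 over the 6 abundant ones. It was -0.03 over all 395 genes tested and over the 181 above 100 CPM, -0.15 over the anti-Rtl1 genes and -0.17 over the distal genes. The median size of the log2 ratio was 0.25 for the 6 abundant genes and 0.13 for all genes above 100 CPM. For the tested distal genes it was 0.19 and for the tested anti-Rtl1 genes 0.15. As a scale, the common biological coefficient of variation over 320 genes was 0.188, while the spread between the animals was 24.9% of the mean for Mir665, 22.9% for Mir493, 12.3% for Mir540, 11.9% for Mir673, 2.54% for Mir770 and 1.04% for Mir337.

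**Figure D3:**
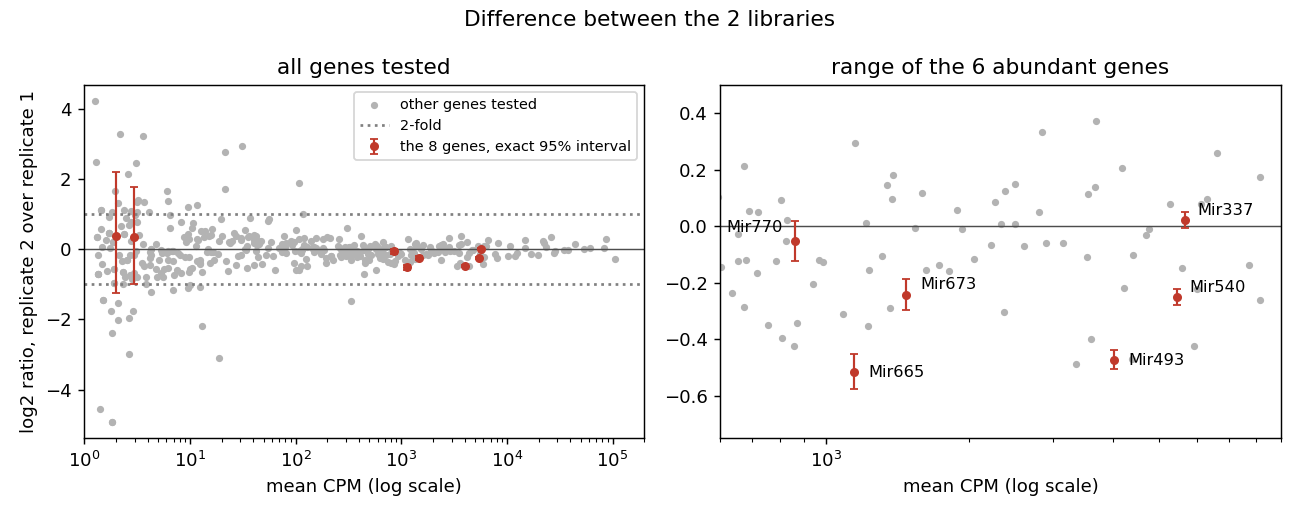
Log2 ratio of replicate 2 over 1 (counts plus 0.5) against mean CPM (log axis) for the 395 genes tested, at left in full and at right around the 6 abundant genes, with exact 95% intervals for the 8 genes in red. Mir493, Mir665, Mir540 and Mir673 lie below 0, Mir337 and Mir770 lie near 0, and the intervals of the Mir3070 genes span more than 2-fold.

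The shares of the genes within the group were set side by side for the animals. Of the reads of the 8 genes Mir493 made up 23.4% (Wilson 95% interval 23.0% to 23.7%) in the animal of replicate 1 and 19.6% (19.3% to 19.9%) in the other. Mir337 made up 28.1% (27.7% to 28.4%) and 33.2% (32.8% to 33.6%), and Mir540 29.5% and 28.9%. Mir673 gave 7.95% and 7.83%, Mir665 6.71% and 5.48%, and Mir770 4.38% and 4.92%. The intervals cover counting error only, which most genes of this depth exceeded, so the shares are given as a description of these libraries. Mir337, Mir540 and Mir493 together supplied most of the reads in both.

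Mir337 has a gene on the opposite strand within its own hairpin, and its count depends on strand. Mir3544 (109585813 to 109585873, minus strand) is 61 bases long and lies 3319 bases beyond the 3′ end of Rtl1, with which it shares a strand. It had 145 sense reads in replicate 1 and 112 in replicate 2, or 41.3 and 28.4 CPM (mean 34.8 ± 9.15 CPM). Mir337 exceeded it 136-fold in replicate 1 (exact 95% interval 116 to 162) and 201-fold in replicate 2 (167 to 245). Of the sense reads of both genes Mir3544 held 0.728% (Wilson 95% interval 0.619% to 0.856%) and 0.494% (0.411% to 0.594%). It was 1.46-fold higher in replicate 1 (1.13 to 1.88, exact adjusted p = 0.00896).

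The arms of the hairpins lie face to face. They are shown with the bases that each shares, as reverse complement, with the opposite arm in capitals. These are 17 bases for the first pair of arms and 21 for the other.
miR-337-5p: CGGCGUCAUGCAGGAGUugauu
miR-3544-3p: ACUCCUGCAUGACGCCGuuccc
miR-337-3p: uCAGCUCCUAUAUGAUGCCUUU
miR-3544-5p: agAAAGGCAUCAUAUAGGAGCUG

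Without strand, reads over both genes are ambiguous and counted on neither. The unstranded count of Mir337 was 4 in replicate 1 and 2 in replicate 2, and that of Mir3544 was 0 in both. The antisense count of Mir3544 equalled the sense count of Mir337 in each library (19761 and 22559), so every sense read of Mir337 touched the 61 bases of Mir3544. No other gene of the 8 overlaps a miRNA gene, and their antisense reads together numbered 0 beside 50660 sense reads in replicate 1 and 1 beside 45397 in replicate 2. Among 32 places where miRNA genes overlap on opposite strands, each strand had more than 3 reads in both libraries at 5. Mir3544 had the highest level of the 32 lower strands. As a share of the reads of its pair over both libraries it held 0.604%, below the median of 2.06% for the lower strands at those 5.

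**Figure D4:**
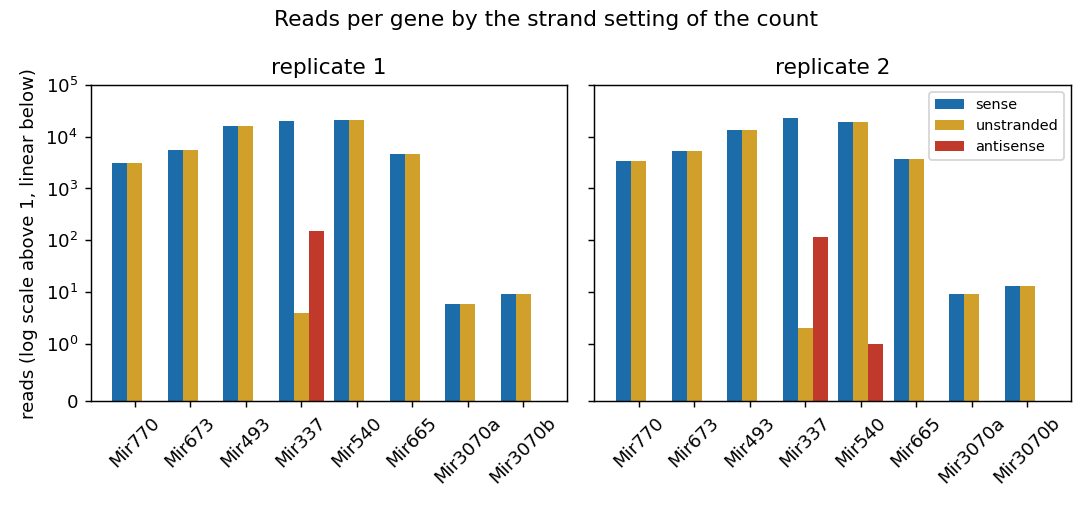
Reads per gene (logarithmic above 1 and linear below) in each animal for the sense, unstranded and antisense counts. Sense and unstranded bars are level for the 7 genes other than Mir337, whose unstranded count was 4 and 2 and whose antisense count was 149 and 114.

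Mir3070a and Mir3070b were nearly absent from the counted reads, with 6 and 9 reads for Mir3070a (1.71 and 2.28 CPM) and 9 and 13 for Mir3070b (2.56 and 3.29 CPM). Mir3070a missed the detection threshold in replicate 1. In replicate 1 Mir770 exceeded Mir3070b 342-fold (exact 95% interval 180.1 to 749) and in replicate 2 257-fold (150.2 to 484). The ratio of Mir3070b to Mir3070a was 1.5 (0.477 to 5.12) and 1.44 (0.571 to 3.83), so the copies cannot be ranked by these reads, although their ranges did not overlap.

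The 2 hairpins are copies that start 649 bases apart and are identical at 84 of 89 bases (94.4%). They are shown with the differing bases in capitals.
Mir3070a: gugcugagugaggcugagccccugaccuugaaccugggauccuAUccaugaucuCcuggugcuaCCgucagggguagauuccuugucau
Mir3070b: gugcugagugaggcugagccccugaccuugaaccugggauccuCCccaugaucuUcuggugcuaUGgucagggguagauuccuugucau

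Counted from 1 at the 5′ end of the hairpin, with Mir3070a first, the differences are A44C, U45C, C55U, C65U and C66G. Their longest common run is 43 bases and holds the whole 5′ mature sequence, which is the same in both genes.
miR-3070-5p: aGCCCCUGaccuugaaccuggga
miR-3070-3p of Mir3070a: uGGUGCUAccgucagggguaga
miR-3070-2-3p of Mir3070b: uGGUGCUAuggucagggguaga

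In these lines the seed is in capitals. The 3′ arms have the same seed and differ at C9U and C10G, counted from the 5′ end of the arm. A read of the shared 5′ sequence matches both genes, and reads that aligned to several places, 42.6% and 46.4% of each file, were counted on no gene. The counts of Mir3070a and Mir3070b therefore cover only what can be placed on 1 copy and are no measure of miR-3070-5p. Of the windows of 22 bases in each hairpin 24 of 68 (35.3%) recur in the other copy. No window of 22 or of 18 bases of the other 6 genes recurs, on either strand, in an annotated miRNA hairpin at another locus. Hairpins that overlap the gene, such as Mir3544 within Mir337, were left out of that search. No mature arm of those 6 genes was found in an annotated GENCODE transcript at another locus, on either strand, whereas genomic sequence outside transcripts was not searched.

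As hairpins the 8 genes differ in composition and in predicted folding. Mir770 had the highest G and C content, 70.2%, followed by Mir673 (61.5%) and Mir540 (61.2%), and the remainder lay between 52.6% and 55.1%. The median over the 332 detected miRNA genes was 50.0%, with a 10th percentile of 39.7% and a 90th of 63.1%. RNAfold gave minimum free energies from -58.2 kcal/mol for Mir770 to -32.6 kcal/mol for Mir3070a. Per base the energy was lowest in Mir770 (-0.619) and Mir540 (-0.610), then Mir493 (-0.542) and Mir337 (-0.509), Mir665 (-0.470) and Mir673 (-0.465), and highest in Mir3070b (-0.390) and Mir3070a (-0.366). The least stable predicted hairpins were thus those of the copies with few countable reads, while Mir770, with the lowest energy, was the lowest of the abundant genes.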

How the data were processed

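The members and lists were chosen with earlier results of these data known. The deposited files give raw counts of reads per miRNA gene (unstranded, sense, antisense), made by the authors on mm10 with GENCODE M21, per the descriptions deposited with them. Which column is sense was read from their layout and totals. RNA shorter than 30 bases was selected, per the labels. No aligner name or trimming step is given in the sources used here. Files held 8152102 and 10176117 reads, of which 43.1% and 38.8% were sense reads on miRNA genes. Unaligned, multiply aligned and no-feature reads stayed out of totals.

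Sense counts were scaled to CPM. Levels are means ± SD (n = 2), and p-values measure the difference between 2 libraries only. edgeR 4.0.16 (R 4.3.3) gave TMM factors and the coefficient of variation (at least 10 counts in each library), DESeq2 1.42.0 other size factors, SciPy 1.17.1 the exact tests (at least 10 counts in both libraries together) and RNAfold 2.7.2 the energies. The exact test was checked only on simulated Poisson counts, which hold no spread between libraries beyond sampling noise. That check does not cover the larger spread of these data. edgeR's quasi-likelihood test could not be fitted to 1 library against 1. Named genes were the 8 members, miRNA genes overlapping them or next downstream, the highest of each neighbouring part, the nearest 2 by level and seed partners. Alternatives changed scaling, strand, filter, threshold and replicate.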

Additional observations from a re-analysis of the deposited data

Results flagged for a closer look

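Antisense reads over Mir337, a count that the levels do not use, numbered 149 in replicate 1 and 114 in replicate 2, above the 3 counts that a count of 0 allows. Of these, 145 and 112 are the sense reads of Mir3544, and 4 and 2 lie in the Mir337 hairpin outside Mir3544. No other of the 8 genes had more than 1 antisense read.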

How the results depend on the processing

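With unstranded counts Mir337 fell to 0.980 CPM, the share of the 8 genes was 1.55% of counted reads and 4.63% of the reads of the region, and 0 of the 8 genes kept their place in the order, because Mir337 dropped to the last place. With all reads of the file as denominator the share was 0.766% and the median level 539 per 1e6 reads, since the denominator is larger. Without 1 replicate, 6 to 8 of the 8 genes kept their place (6 without replicate 2), and per hairpin base, an alternative chosen after seeing the data, 6 did. In both settings with 6, Mir337 and Mir540 changed places. Requiring 2-fold as well as the adjusted p left 0 calls in place of 4. TMM, DESeq2 size factors, no filter and unstranded counts gave 4 or 5 calls, the additional one being Mir337 with DESeq2 size factors. At thresholds of 1 and 5 CPM, 8 and 6 genes were detected in place of 7. No paired analysis was possible because there is 1 group. Depth limits the Mir3070 genes, whose 6 to 13 reads give intervals wider than 2-fold.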
